A study of Mus musculus with 27 samples.

Results

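The whole fetal brain of Cav1-null mice was profiled by RNA sequencing on gestational day 12 (d12) and day 15 (d15), and 4666 of the 19934 genes that could be tested, or 23.4%, changed between the days. The comparison takes the 3 libraries labelled Cav1-null d12 and the 3 labelled Cav1-null d15, 6 of the 27 libraries of the series, and covers all 55416 genes of the count table. No measured value was used to choose them. The strain is B6.Cg-Cav1tm1Mls/J, a line on the C57BL/6J background with a targeted mutation of Cav1, the gene of caveolin-1, which coats the membrane pits called caveolae. The mutation is carried by the whole animal and is shared by every Cav1-null group, so the days differ in age and not in genotype. No treatment is named for any group, all fetuses are labelled female, and days were counted from the vaginal plug as day 1. The whole brain was taken out of frozen fetuses. No source used here says which fetuses shared a litter, so the p-values measure the spread between these libraries. The study asked how brain gene expression moves over gestation in short-lived and long-lived strains and calls d12 to d15 the early phase. Also used were the 3 Cav1-null libraries of d17, and the 3 d12 and 3 d15 libraries of C57BL/6J fetuses labelled female, the strain with intact Cav1.

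In the mouse brain of these days, neuroepithelial cells and radial glia divide along the ventricles and give rise to neurons, directly or through intermediate progenitors that divide again. Newborn neurons leave the cell cycle, migrate, grow axons and begin to make the receptors and channels of synapses, while the first glial precursors appear. Blood in the vessels switches over the same period from primitive red cells of the yolk sac, which carry embryonic globins, to red cells of the fetal liver, which carry adult globins.

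Levels are stated in CPM, a gene's reads scaled to the same total in every library, always for replicates 1, 2 and 3 in this order. A log2 fold change is d15 over d12, with its standard error, from edgeR's quasi-likelihood test, and a call needs a p below 0.05 after Benjamini-Hochberg adjustment. Counts of genes that rose or fell in a list are those called with all 6 libraries, and those given as called whichever library was left out were called again in each of the 6 fits with 5 libraries. A named gene said to have risen or fallen was called with all 6 libraries and again without each library in turn, unless the libraries whose removal ended the call are named. Whether the counting used strand is not given in the sources used here, so reads are uncertain for genes that share exon bases with a gene on the other strand. Among the genes named here, the shared part was 20.1% to 79.4% of the exon bases for Nrarp, Sox2, Klf1, Ccnd1, Lhx1, Hes5, Cdkn1c, Olig3, Shh, Pax6 and Dkc1.

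Before the results, some libraries need a remark. Cav1 had 2, 0 and 8 reads in the d12 libraries and 0, 6 and 2 reads in the d15 libraries, or at most 0.237 CPM, against 14.2, 17.2 and 10.7 CPM on d12 and 18.3, 11.5 and 17.5 CPM on d15 in C57BL/6J. Where along the gene these reads lie cannot be seen in a table of genes. Cav2, the partner of caveolin-1, had 19.1, 13.8 and 18.8 CPM on d12 and 15.7, 19.9 and 25.3 CPM on d15 and was not called between the days. The label of sex was not met by 1 library. Xist, the RNA of the inactive X chromosome, was at 3.67 CPM in d12 replicate 2 and at 4360 to 6291 CPM in the other 5 libraries. The Y-linked genes Ddx3y, Eif2s3y, Kdm5d and Uty together reached 425 CPM in d12 replicate 2 and at most 0.149 CPM in the others. Without this library, 3556 genes were called, and of the 4666 genes 3238 were called in the same direction. Without it the median changed sign in the globin, splicing regulator and ribosomal protein lists, all of them near 0, and in none of the other lists.

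A second library, d12 replicate 3, stood apart in genes of brain regions and of other tissues. Tbr1, made by early cortical neurons, was at 85.7, 64.8 and 8.61 CPM in the d12 libraries, and the genes of cortical projection neurons summed to 1811, 1552 and 1071 CPM. The 29 Hox genes, which are silent in front of the hindbrain, summed to 1.21, 0.303 and 79.7 CPM on d12 and to 18.2, 49.3 and 3.02 CPM on d15. The 25 genes of meninges and connective tissue summed to 761, 649 and 2379 CPM on d12, and the 31 mitosis genes to 3827, 3761 and 2241 CPM. Thus d12 replicate 3 held less RNA of cortical neuron genes, more of Hox and connective tissue genes, and less of mitosis genes than the other d12 libraries. Which region the Hox RNA came from was not tested. Leaving it out raised the number of called genes to 7378, and 4603 of the 4666 genes were called in the same direction. The cause of these differences was not tested. Brain markers were present in all 6 libraries, with Sox2 at 166, 156 and 84.7 CPM on d12 and 79.1, 75.9 and 69.1 CPM on d15 and Dcx at 1473, 1538 and 1488 CPM on d12 and 1809, 1902 and 1993 CPM on d15.

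**Figure D1:**
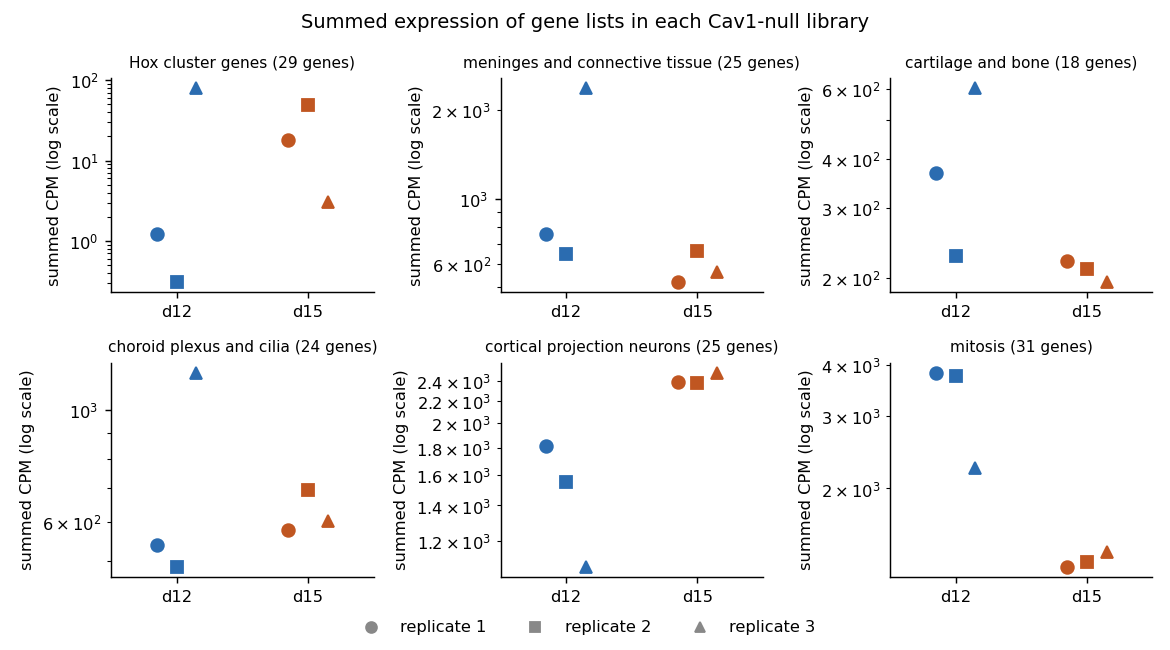
Summed CPM (log scale) of 6 gene lists in each Cav1-null library of d12 (blue) and d15 (orange), with the replicate given by the shape of the point. In d12 replicate 3 the Hox genes reach 79.7 CPM and the connective tissue genes 2379 CPM, above the other d12 libraries, while its cortical and mitosis sums lie below theirs.

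Of the 4666 genes, 2318 were higher on d15, 11.6% of the genes tested, and 2348 were lower, 11.8%. The counts of every list with 6 libraries stand against these shares. A count near them is not a result about the list. The median change of the higher genes was 0.83 on the log2 scale and that of the lower genes -0.66. At least a change of 1 on the log2 scale was seen in 940 of the higher and 649 of the lower genes. Without d12 replicate 3, 17.7% of the genes tested were called higher and 18.2% lower, the shares against which the counts of a list without that library stand. Without each library in turn, 1048 of the higher and 912 of the lower genes were called each time, 9.83% of the genes tested. List counts given for whichever library was left out stand against these 2 numbers of the 19934 genes tested. Leaving out a d15 library reduced the calls most, to 2419, 2301 and 2533 for replicates 1, 2 and 3, and leaving out d12 replicate 1 reduced them to 2984. For 4642 of the called genes the libraries of the days did not overlap in CPM, and 42.3% of all genes tested had no overlap. Protein-coding genes made up 1923 of the higher and 2241 of the lower genes, and long noncoding RNAs 197 and 76. The higher protein-coding genes spanned a median of 45.9 kb of the genome and the lower ones 25.8 kb, against 26.9 kb for all protein-coding genes tested (GENCODE vM39, GRCm39). In bulk tissue, fewer cells of a type and less RNA per cell cannot be told apart, and this holds for every value below.

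**Figure D2:**
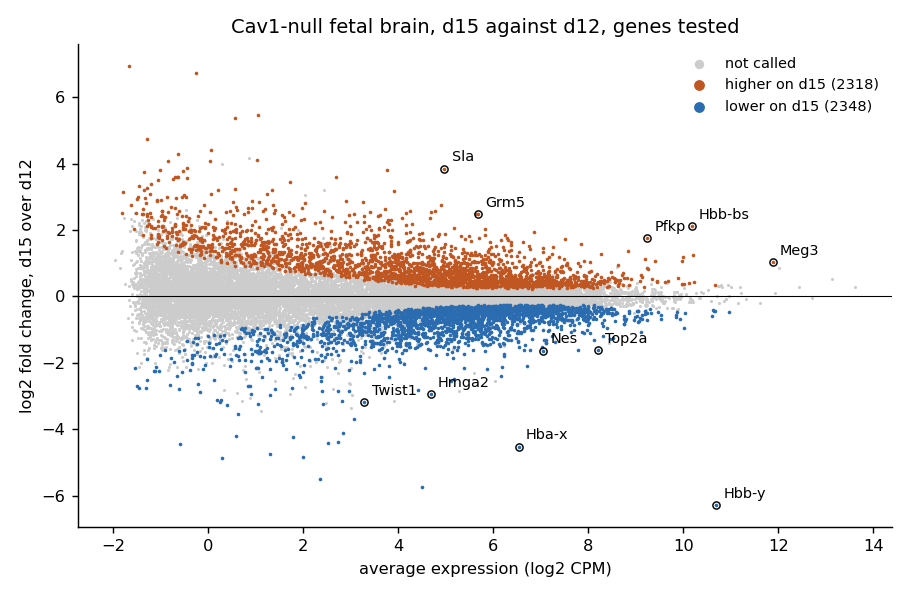
Log2 fold change of d15 over d12 against average expression (log2 CPM) for the 19934 genes tested, with 2318 genes called higher on d15 (orange), 2348 called lower (blue) and the rest in grey. The embryonic globin Hbb-y, at -6.27, is the lowest of the circled genes and Sla, at 3.85, the highest.

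The 12 largest rises among called genes that reached an average log2 CPM of 3, and whose days did not overlap, were led by Sla and a long noncoding RNA. Sla (chromosome 15, 66651899 to 66704001, minus strand, GRCm39), an adaptor that dampens receptor signalling, had 4.75, 4.70 and 2.60 CPM on d12 and 55.6, 54.04 and 67.2 CPM on d15, a log2 fold change of 3.85 ± 0.24 (adjusted p = 7.13e-05). The long noncoding RNA B230209E15Rik (chromosome 7, 61179591 to 61265226, minus strand) had 1.86, 2.09 and 1.36 CPM on d12 and 25.3, 24.3 and 26.3 CPM on d15 (3.81 ± 0.21). Its d15 libraries lay within a narrow range, far above d12. Car8, a partner of the inositol trisphosphate receptor, rose by 2.86 ± 0.18, Rasgrf1, an activator of Ras and an imprinted gene, by 2.65 ± 0.14, Caln1, a neuronal calcium-binding protein, by 2.56 ± 0.19, and Abcc8, the sulfonylurea receptor of ATP-gated potassium channels, by 2.55 ± 0.25. Jakmip3 changed by 2.56 ± 0.22, Lmo7 by 2.53 ± 0.26 and Bend6, a partner of the Notch effector CSL, by 2.48 ± 0.13, and all of these kept their call without each library. Ptgds, the prostaglandin D synthase of the meninges, had 2.96, 2.55 and 10.9 CPM on d12 and 12.4, 37.6 and 47.04 CPM on d15, and its call (2.57 ± 0.60, adjusted p = 0.0166) was lost without d12 replicate 1 or 2 or d15 replicate 2 or 3.

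The 12 largest falls by the same rule were led by 3 embryonic globins. Hbb-y (chromosome 7, 103500956 to 103502423, minus strand), the embryonic beta-like globin, had 3481, 3124 and 3072 CPM on d12 and 35.2, 49.1 and 42.8 CPM on d15, a change of -6.27 ± 0.17 (adjusted p = 1.32e-06). Hbb-bh1 fell by 53.4 fold and Hba-x, the embryonic alpha-like globin, by 22.9 fold. Slc4a1, the anion exchanger of the red cell membrane, changed by -2.43 ± 0.30. Among genes of the neural tube, Hmga2 (chromosome 10, 120197173 to 120313095, minus strand), a chromatin protein of young stem cells, had 51.1, 37.7 and 45.8 CPM on d12 and 5.14, 6.12 and 6.43 CPM on d15 (-2.94 ± 0.15). The highest d15 library of Hmga2 was at 6.43 CPM and the lowest d12 library at 37.7 CPM. Dbx1, a regulator of interneuron progenitors, changed by -2.29 ± 0.22, Tal2, a regulator of midbrain GABAergic neurons, by -2.48 ± 0.21, and Crabp2, a carrier of retinoic acid, by -2.53 ± 0.20. Hsd3b6, a steroid dehydrogenase not placed among the neural tube genes, changed by -3.70 ± 0.26. The other 3 of the 12 largest falls, Twist1, Col3a1 and Gpc3, rested in part on d12 replicate 3. Twist1, a regulator of mesenchyme, had 3.85, 3.28 and 46.3 CPM on d12 and 1.15, 3.20 and 1.36 CPM on d15, and its change of -3.19 ± 0.98 became -0.96 without that library. Col3a1, a fibrillar collagen, had 50.8, 40.7 and 276 CPM on d12 and 12.7, 36.1 and 20.1 CPM on d15 and went from -2.39 ± 0.69 to -1.05. Gpc3, a glypican of mesoderm, had 15.5, 14.7 and 84.01 CPM on d12 and 4.88, 7.29 and 3.73 CPM on d15 and went from -2.82 ± 0.65 to -1.57. The calls of Twist1 and Col3a1 were lost without any of the d15 libraries, and that of Gpc3 without d15 replicate 1 or 3.

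Genes of cell division fell together. Of the 31 genes of mitosis, 31 fell, 27 of them without each library in turn, with a median of -1.30 against -0.01 over all genes tested. Of the 35 genes of DNA replication, 32 fell and none rose, 21 without each library in turn, with a median of -1.02. Without d12 replicate 3 these medians were -1.51 and -1.22, and without d12 replicate 2 they were -1.18 and -0.85. Top2a, the topoisomerase that untangles chromosomes, had 498, 529 and 278 CPM on d12 and 140.2, 149.9 and 148 CPM on d15, a change of -1.61 ± 0.23 (adjusted p = 0.00211). Mki67, the proliferation marker, had 468, 435 and 261 CPM on d12 and 153, 153 and 173 CPM on d15 (-1.31 ± 0.21). In each of these genes d12 replicate 3 was the lowest of the d12 libraries and still above every d15 library. Cdc20, the activator of the anaphase-promoting complex, changed by -1.60 ± 0.20, Ccnb1, cyclin B1, by -1.53 ± 0.23, Tpx2, a spindle factor, by -1.50 ± 0.21, and the kinase Cdk1 by -1.24 ± 0.20. Mcm2, a subunit of the replicative helicase, had 76.6, 64.6 and 47.3 CPM on d12 and 18.7, 18.9 and 20.8 CPM on d15 (-1.72 ± 0.18). The helicase subunits Mcm3 and Mcm4 changed by -1.52 ± 0.18 and -1.41 ± 0.14, the loading factors Mcm10 and Cdc6 by -1.69 ± 0.24 and -1.52 ± 0.24, and Uhrf1, which keeps DNA methylation through replication, by -1.60 ± 0.18.

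Replication genes are known as targets of E2F factors, and mitotic genes as targets of complexes that bind a CHR element and CCAAT boxes near the start. RefSeq promoter windows of 300 bases (250 before to 50 after a start, GRCm38.p6) were found for 28 of the 35 replication genes, 27 of the 31 mitosis genes and 13140 of the genes tested. An E2F motif, spelled TTTGGCGC, TTTGCCGC, TTTCGCGC or TTTCCCGC on either strand, was present in 13 of the 28 replication genes, or 46.4% (95% Wilson interval 29.5% to 64.2%), in 1 of the 27 mitosis genes and in 4.28% of all 13140 genes. The CHR letters TTTGAA were present in 21 of the 27 mitosis genes, or 77.8% (59.2% to 89.4%), in 4 of the 28 replication genes and in 14.8% of all. CCAAT was present in 77.8% of the mitosis genes, 64.3% of the replication genes and 42.4% of all. A match of letters is a description and not a bound site, and the shares describe all members with a window, whether or not they fell. The windows printed here are those of the called members with the largest falls that hold an E2F motif (replication) or both a CHR and a CCAAT motif (mitosis), with these motifs in capitals, 5′ to 3′ along the gene. Positions are those of the exact match in GRCm39, and in the window of Ube2c a CCAAT overlaps its own reverse complement.
Uhrf1 (chr17:56611063-56611362, plus strand): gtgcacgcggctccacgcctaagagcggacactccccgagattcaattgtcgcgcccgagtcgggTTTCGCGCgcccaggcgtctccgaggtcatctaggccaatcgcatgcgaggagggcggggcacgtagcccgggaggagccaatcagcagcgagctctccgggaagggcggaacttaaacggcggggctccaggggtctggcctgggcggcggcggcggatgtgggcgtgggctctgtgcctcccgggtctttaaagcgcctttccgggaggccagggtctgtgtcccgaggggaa
Cdc6 (chr11:98798727-98799026, plus strand): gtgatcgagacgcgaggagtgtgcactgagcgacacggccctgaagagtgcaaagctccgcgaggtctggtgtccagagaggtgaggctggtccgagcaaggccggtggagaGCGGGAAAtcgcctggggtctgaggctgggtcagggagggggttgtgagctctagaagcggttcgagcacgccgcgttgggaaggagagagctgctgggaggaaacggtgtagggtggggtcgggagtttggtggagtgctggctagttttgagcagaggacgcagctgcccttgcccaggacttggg
Mcm3 (chr1:20890487-20890786, minus strand): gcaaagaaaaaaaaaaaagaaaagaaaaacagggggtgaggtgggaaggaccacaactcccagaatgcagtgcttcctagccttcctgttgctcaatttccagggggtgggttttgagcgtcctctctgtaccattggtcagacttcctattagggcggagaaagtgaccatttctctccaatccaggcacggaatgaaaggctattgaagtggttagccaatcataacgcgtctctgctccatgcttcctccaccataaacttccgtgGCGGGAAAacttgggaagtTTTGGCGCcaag
Top2a (chr11:98914966-98915265, minus strand): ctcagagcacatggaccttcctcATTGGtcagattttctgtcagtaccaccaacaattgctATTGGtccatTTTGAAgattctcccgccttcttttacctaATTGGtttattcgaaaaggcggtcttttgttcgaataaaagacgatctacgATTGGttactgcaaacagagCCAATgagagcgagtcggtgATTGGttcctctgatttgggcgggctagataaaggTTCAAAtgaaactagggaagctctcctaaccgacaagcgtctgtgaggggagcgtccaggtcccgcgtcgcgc
Cdc20 (chr4:118294491-118294790, minus strand): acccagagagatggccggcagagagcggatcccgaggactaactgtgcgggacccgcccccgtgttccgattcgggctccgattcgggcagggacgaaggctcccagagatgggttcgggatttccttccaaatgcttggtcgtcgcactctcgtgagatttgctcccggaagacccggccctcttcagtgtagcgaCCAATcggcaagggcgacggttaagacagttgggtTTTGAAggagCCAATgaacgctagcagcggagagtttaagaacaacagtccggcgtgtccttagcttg
Ube2c (chr2:164611599-164611898, plus strand): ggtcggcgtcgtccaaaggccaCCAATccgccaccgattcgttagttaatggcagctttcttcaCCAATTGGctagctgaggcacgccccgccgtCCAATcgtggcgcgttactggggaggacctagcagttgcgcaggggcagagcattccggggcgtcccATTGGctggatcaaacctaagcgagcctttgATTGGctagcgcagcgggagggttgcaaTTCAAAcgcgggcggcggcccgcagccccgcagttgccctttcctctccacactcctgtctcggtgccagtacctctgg

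Most progenitor genes fell as well. Of 24 genes of radial glia and neuroepithelial progenitors, 16 fell, 12 of them without each library in turn, and 2 rose, with a median of -0.97. Nes, the intermediate filament of neural stem cells, had 229, 213 and 147 CPM on d12 and 69.5, 64.2 and 60.9 CPM on d15 (-1.63 ± 0.17, adjusted p = 0.000609). Ccnd1, cyclin D1 of the G1 phase, had 98.3, 107 and 76.3 CPM on d12 and 24.4, 21.1 and 18.1 CPM on d15 (-2.18 ± 0.17), and Sox3, a SoxB1 stem cell factor, had 24.9, 23.9 and 10.3 CPM on d12 and 6.70, 5.33 and 4.81 CPM on d15 (-1.85 ± 0.34). The days did not overlap in any of these genes. Sox2 changed by -0.89 ± 0.24, but its call (adjusted p = 0.0264) held in only 1 of the 6 smaller fits, the one without d12 replicate 3, where the change was -1.17. Pax6, the regulator of dorsal radial glia, had 146, 139.8 and 67.8 CPM on d12 and 69.9, 66.7 and 70.1 CPM on d15 and was not called (adjusted p = 0.0558), while without d12 replicate 3 it changed by -1.11 and was called. Tnc, the matrix protein tenascin C of later radial glia and astrocytes, went the other way with 16.4, 15.9 and 57.4 CPM on d12 and 96.4, 91.5 and 92.9 CPM on d15, a change of 1.65 ± 0.41 whose call held only in the fit without d12 replicate 3.

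Of 18 genes of intermediate progenitors and proneural factors, 11 fell and none rose (0 higher and 9 lower whichever library was left out), with a median of -0.82. Neurog1, which drives sensory and other neurons, changed by -2.42 ± 0.27 and Dll3, a Notch ligand of newborn neurons, by -1.39 ± 0.20. Neurog2, the proneural factor of the cortex, had 153, 142 and 73.3 CPM on d12 and 57.1, 46.7 and 54.5 CPM on d15 (-1.25 ± 0.26), with its call lost without d15 replicate 2 or 3. Eomes, the marker of cortical intermediate progenitors, had 74.1, 51.1 and 11.8 CPM on d12 and 46.6, 42.1 and 42.4 CPM on d15. The days overlapped, with d12 replicate 3 the lowest of all 6 libraries, and without that library the change was -0.57 (adjusted p = 0.00125) in place of -0.10 ± 0.51 (adjusted p = 0.904).

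Of 24 G1 regulators and genes of cell cycle exit, 15 fell, 8 of them without each library in turn, and none rose. E2f1, an activator of replication genes, had 50.7, 41.2 and 34.5 CPM on d12 and 19.8, 17.7 and 19.6 CPM on d15 (-1.17 ± 0.16). Cdkn1c, the imprinted inhibitor p57, fell too, with 73.01, 93.4 and 185 CPM on d12 and 36.2, 36.6 and 28.98 CPM on d15 (-1.79 ± 0.28), so that in this list the cyclin and an inhibitor moved the same way. Ccnd2 changed by -0.95 ± 0.21 and Ccnd3 by -0.95 ± 0.24, with calls lost without any d15 library for Ccnd2 and without d15 replicate 1 or 3 for Ccnd3.

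**Figure D3:**
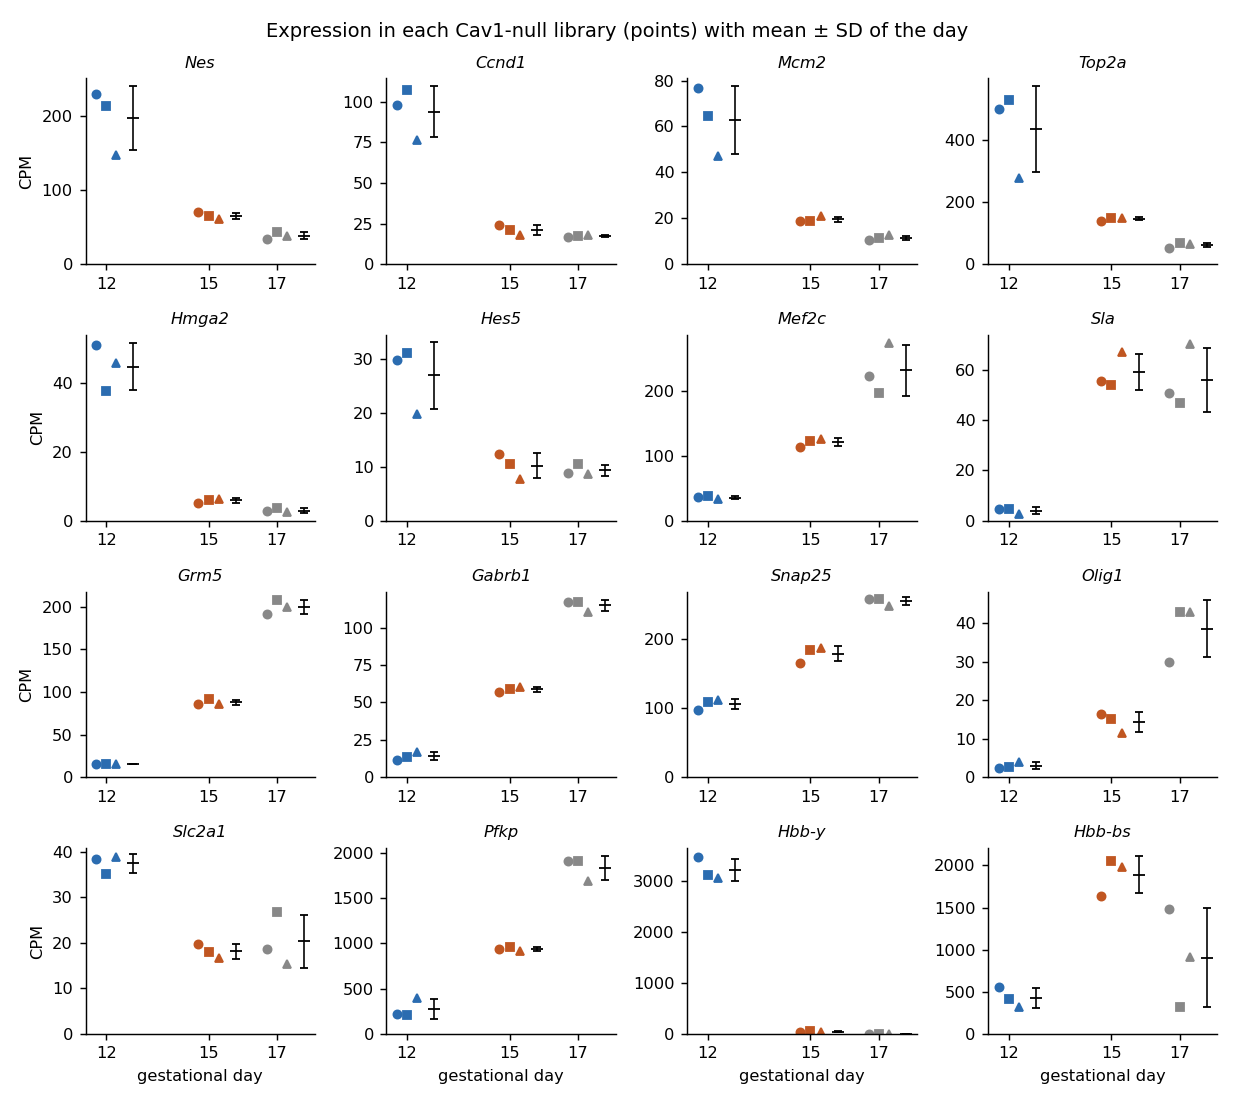
CPM of 16 genes in each Cav1-null library against gestational day (d12, d15 and d17, points shaped by replicate), with the mean ± SD of 3 libraries as black marks. Nes, Mcm2 and Top2a lie lower on d15 than on d12 in every library, Sla, Grm5, Gabrb1 and Pfkp lie higher, and Hbb-y falls from at least 3072 CPM to at most 49.1 CPM.

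Among 24 genes of developmental timing and RNA binding, 14 fell and 2 rose, 8 and 0 of them without each library in turn. Hmga2 is the member described above. Its partner in the let-7 pathway Lin28b, an inhibitor of let-7 maturation, had 52.3, 48.2 and 51.4 CPM on d12 and 48.5, 50.8 and 53.5 CPM on d15 and was not called (-0.01 ± 0.09, adjusted p = 0.934). The related Lin28a had 1.03, 1.52 and 1.54 CPM on d12 and 0.335, 0.55 and 0.539 CPM on d15, and its call was lost without d12 replicate 2 or any d15 library. Nfix, a factor of later progenitors and gliogenesis, had 92.7, 49.4 and 38.3 CPM on d12 and 145, 135 and 138 CPM on d15, a change of 1.19 ± 0.28 whose call was lost without the same libraries.

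Notch signalling, by which a newborn neuron holds its neighbours in the progenitor state, was lower in most of its genes. Of 24 members, 19 fell, 11 of them without each library in turn, and 2 rose, with a median of -0.81. The receptor Notch3 had 58.4, 56.4 and 61.3 CPM on d12 and 30.7, 29.01 and 21.7 CPM on d15 (-1.13 ± 0.13), while the calls of Notch1 (-0.86 ± 0.20) and Notch2 (-0.63 ± 0.14) were lost without d15 replicate 1 or 3, and that of Notch1 also without d15 replicate 2 or d12 replicate 1 or 2. The glycosyltransferase Mfng, which tunes ligand choice, changed by -1.19 ± 0.19. The targets Hes5, with 29.8, 31.1 and 19.8 CPM on d12 and 12.3, 10.5 and 7.68 CPM on d15 (-1.44 ± 0.24), and Nrarp, with 16.6, 17.4 and 12.3 CPM on d12 and 6.33, 5.98 and 6.18 CPM on d15 (-1.35 ± 0.19), fell in every d15 library below every d12 library.

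Many of the signals that pattern the neural tube were lower on d15, though not all. Of 33 members, 19 fell and none rose, 9 of them without each library in turn. The median was -1.13, and -0.73 without d12 replicate 3, where 4 members were called higher. Shh, the ventral morphogen, had 7.10, 8.95 and 7.31 CPM on d12 and 2.27, 2.30 and 2.41 CPM on d15 (-1.77 ± 0.21), and its receptor and target Ptch1 had 85.6, 88.3 and 93.9 CPM on d12 and 62.4, 64.5 and 57.9 CPM on d15 (-0.56 ± 0.08). The target Gli1 had 9.21, 8.31 and 21.04 CPM on d12 and 9.35, 10.3 and 9.84 CPM on d15 and was not called, with d12 replicate 3 above all the others. Wnt8b, a ligand of the cortical hem, had 18.2, 12.96 and 8.88 CPM on d12 and 2.05, 0.756 and 2.91 CPM on d15 (-2.84 ± 0.46), Wnt3a, another hem ligand, 2.50, 1.27 and 2.90 CPM on d12 and 0.261, 0.206 and 0.215 CPM on d15 (-3.28 ± 0.41), and Rspo1, which enhances Wnt signals, 13.7, 10.9 and 13.2 CPM on d12 and 2.20, 3.33 and 2.66 CPM on d15 (-2.22 ± 0.21). Both hem ligands were at or below 2.91 CPM in all d15 libraries. The homeobox gene Msx2 was at 1.32, 0.668 and 17.5 CPM on d12, so that its change of -4.24 ± 1.18 became -1.61 without d12 replicate 3, and its call was lost without any d15 library.

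Neuronal genes rose, though not all of them. Of 28 genes of general neuronal differentiation, 14 rose and 1 fell, 8 and 0 without each library in turn. Thy1, a surface protein of maturing neurons, had 1.21, 0.698 and 1.24 CPM on d12 and 7.49, 7.63 and 5.28 CPM on d15 (2.68 ± 0.29), and Myt1l, a repressor of other cell fates in neurons, had 146, 141 and 149.5 CPM on d12 and 293, 291 and 300.4 CPM on d15 (0.99 ± 0.07). Stmn2, a growth cone protein, changed by 0.54 ± 0.13, its call lost without any d15 library. The early neuronal tubulin Tubb3 had 880.2, 1151 and 882 CPM on d12 and 849, 798 and 694 CPM on d15 and was not called, nor was Dcx (0.32 ± 0.10, adjusted p = 0.0501). Without d12 replicate 3 both were called, Tubb3 by -0.45 and Dcx by 0.27, and Dcx also without d12 replicate 2. For Tubb3 the d15 libraries lay below those of d12, and for Dcx above them.

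Among 25 genes of cortical projection neurons, 11 rose and none fell, 7 of them without each library in turn. Besides Sla, Mef2c, an activity-regulated factor of upper-layer neurons, had 35.9, 38.3 and 32.8 CPM on d12 and 115, 124 and 127 CPM on d15 (1.75 ± 0.11) and Rasgrf2, a marker of upper layers, had 3.32, 4.98 and 5.30 CPM on d12 and 16.7, 15.3 and 15.1 CPM on d15 (1.77 ± 0.20). The regulators of deep layers had other values. Tbr1 had 67.7, 66.6 and 71.1 CPM on d15 and changed by 0.32 ± 0.61, Bcl11b by 0.12 ± 0.26 and Fezf2 by 0.80 ± 0.41, and none was called. In all of them d12 replicate 3 was the lowest library, and without it Fezf2 was called (0.39, adjusted p = 0.00802). The median of the list was 0.64 with this library and 0.43 without it, where 15 members were higher and 3 lower.

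Of 35 genes of striatum and GABAergic interneurons, 11 rose and 3 fell (6 higher and 1 lower whichever library was left out). Drd1 and Drd2, the dopamine receptors of the striatal output neurons, had 1.68, 1.15 and 1.09 CPM on d12 and 8.19, 5.33 and 6.68 CPM on d15 (2.34 ± 0.28) and 1.89, 1.52 and 1.04 CPM on d12 and 4.84, 3.92 and 4.85 CPM on d15 (1.59 ± 0.29), with no overlap between the days. Rxrg, a retinoid receptor of the striatum, rose by 1.69 ± 0.19 and Htr3a, the serotonin channel of a class of interneurons, by 1.32 ± 0.26. The enzyme Gad2, which makes GABA, had 225, 232 and 155 CPM on d12 and 165, 189.5 and 201 CPM on d15 and was not called with 6 libraries, and was called lower without d12 replicate 3 (-0.37, adjusted p = 0.00712). The balance of this list turned on d12 replicate 3: without it 14 members were higher and 16 lower, and the median went from 0.06 to -0.16.

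Lists of the midbrain, hindbrain and hypothalamus were small and mixed. In the cerebellum and dorsal hindbrain list 8 of 26 genes fell and 1 rose (8 higher and 9 lower without d12 replicate 3, 0 and 7 whichever library was left out), led by Olig3, a factor of dorsal progenitors, with 11.5, 13.4 and 12.3 CPM on d12 and 1.64, 1.65 and 0.934 CPM on d15 (-3.16 ± 0.26), Lmx1a, of the roof plate (-1.34 ± 0.24), and the LIM factors Lhx5 (-1.07 ± 0.12) and Lhx1 (-0.93 ± 0.17). Of 19 genes of monoamine neurons, 6 fell and 2 rose (10 higher and 7 lower without d12 replicate 3, 1 and 4 whichever library was left out). Th, the first enzyme of dopamine synthesis, had 7.74, 9.26 and 10.1 CPM on d12 and 3.20, 4.33 and 4.02 CPM on d15 (-1.25 ± 0.20), while Aldh1a1, an enzyme of a subset of midbrain dopamine neurons, rose from 0.856, 0.243 and 0.533 CPM to 6.89, 6.43 and 4.74 CPM (3.46 ± 0.41). Of 14 genes of cranial motor and cholinergic neurons, 2 fell, Gata2 (-1.34 ± 0.23) and Isl1 (-0.76 ± 0.18), the latter called again only without d12 replicate 3. Among 22 hypothalamic genes 4 rose and 3 fell (5 higher and 8 lower without d12 replicate 3, 3 and 2 whichever library was left out). Over all genes tested, 11.6% were higher and 11.8% lower with all libraries, so this count says little about the list. Avp, the hormone vasopressin, was at 0.0714, 0.182 and 0 CPM on d12 and 2.16, 1.41 and 2.15 CPM on d15, Nts, neurotensin, had 6.39, 8.07 and 3.67 CPM on d12 and 27.2, 16.3 and 22.8 CPM on d15 (1.83 ± 0.31), and Sim1, a regulator of the paraventricular nucleus, had 20.4, 27.5 and 16.3 CPM on d12 and 6.89, 7.63 and 7.76 CPM on d15 (-1.56 ± 0.22).

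Lists of posterior regions moved with d12 replicate 3. Its removal took the median of the motor list from -1.31 to 0.36, that of the monoamine list from -0.52 to 0.60 and that of the cerebellar list from -0.44 to 0.00. None of the 10 Hox genes tested was called with 6 libraries, while 9 were called higher on d15 without d12 replicate 3. The d15 libraries also differed among themselves in the sum of Hox genes, with 49.3 CPM in replicate 2 and 3.02 CPM in replicate 3. No direction can therefore be given for the Hox genes, nor for the motor, monoamine and cerebellar lists as a whole.

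Of 29 presynaptic vesicle and release genes 18 rose, 12 of them without each library in turn, and none fell (18 higher and 2 lower without d12 replicate 3), with a median of 0.49. Snap25, of the SNARE complex, had 97.5, 109 and 112 CPM on d12 and 167, 184 and 187 CPM on d15 (0.74 ± 0.09), Cplx1, the complexin that clamps release, 14.4, 14.6 and 18.3 CPM on d12 and 39.1, 42.2 and 34.1 CPM on d15 (1.27 ± 0.12), and Pclo, of the active zone, 72.5, 64.3 and 79.4 CPM on d12 and 155, 160.1 and 161 CPM on d15 (1.12 ± 0.08). Syn2, Syn3 and the syntaxin Stx1a changed by 1.07 ± 0.12, 1.03 ± 0.11 and 0.93 ± 0.11, and Vamp2 by 0.46 ± 0.09.

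Of 34 glutamate receptors and postsynaptic scaffolds 21 rose, 14 of them without each library in turn. Grm5 (chromosome 7, 87233376 to 87784594, plus strand), the metabotropic receptor mGluR5, had 15.7, 15.5 and 15.2 CPM on d12 and 86.2, 91.4 and 85.9 CPM on d15 (2.48 ± 0.09, adjusted p = 5.26e-06). Its d12 libraries lay between 15.2 and 15.7 CPM. The NMDA receptor subunits Grin1 and Grin2b had 10.2, 10.01 and 16.4 CPM on d12 and 35.98, 31.7 and 26.3 CPM on d15 (1.35 ± 0.19) and 82.2, 85.2 and 94.9 CPM on d12 and 202, 191 and 187 CPM on d15 (1.12 ± 0.08), while Grin2a, which enters receptors later, changed by 0.66 ± 0.21 and was called again only without d12 replicate 3. The scaffold Dlg2, PSD-93, changed by 1.63 ± 0.12 and the receptor Grm3 by 1.53 ± 0.14.

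Receptors of inhibitory transmitters had the highest median of the 50 lists with 6 libraries, 1.04. Of 19 members tested, 15 rose, 12 of them without each library in turn. The GABA-A subunits had unequal changes. Gabrg1 had 4.53, 6.04 and 5.80 CPM on d12 and 26.4, 25.2 and 33.8 CPM on d15 (2.36 ± 0.18), Gabra5 had 6.10, 6.98 and 7.90 CPM on d12 and 31.3, 31.8 and 33.4 CPM on d15 (2.18 ± 0.13) and Gabrb1 had 11.6, 13.7 and 16.7 CPM on d12 and 56.6, 59.3 and 60.1 CPM on d15 (2.05 ± 0.13). The subunit Gabra3 changed by 1.06 ± 0.11 and Gabra2 by 0.91 ± 0.19, with its call lost without d15 replicate 3. Glra3, a glycine receptor, had 0.714, 0.789 and 1.15 CPM on d12 and 4.10, 4.98 and 5.75 CPM on d15 and rose by 2.46 ± 0.28.

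Of 31 voltage-gated channels 23 rose, 16 of them without each library in turn. Among the sodium channels, Scn1a had 29.2, 27.5 and 32.3 CPM on d12 and 70.5, 69.1 and 74.5 CPM on d15 (1.25 ± 0.09) and Scn2a 56.5, 59.7 and 87.1 CPM on d12 and 134, 129.7 and 129.5 CPM on d15 (0.94 ± 0.13), whereas Scn3a, the form prevalent before birth, was at 238, 256 and 286 CPM on d12 and was not called (0.23 ± 0.09, adjusted p = 0.111), save without d12 replicate 3 (0.26, adjusted p = 0.0418). The calcium channel Cacna1e had 117, 95.9 and 133 CPM on d12 and 333, 330.2 and 375 CPM on d15 (1.57 ± 0.11), and the potassium channels Kcnq5 and Kcnc2 changed by 1.94 ± 0.32 and 1.52 ± 0.12.

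Genes that wire the brain were divided. Of 39 axon guidance and adhesion genes 14 rose and 7 fell (8 higher and 2 lower whichever library was left out). The rises numbered 9 without d15 replicate 1 and 18 without d12 replicate 3, and the falls 2 without d15 replicate 3 and 9 without d12 replicate 3. Robo3, the receptor that lets commissural axons cross the midline, had 65.5, 66.1 and 225 CPM on d12 and 31.03, 25.5 and 24.5 CPM on d15 (-2.13 ± 0.42). Its d12 replicate 3 stood far above the other d12 libraries, the change was -1.35 without it, and the call was lost without d15 replicate 3. The midline attractant Ntn1 had 33.2, 34.1 and 38.9 CPM on d12 and 16.9, 17.8 and 10.2 CPM on d15 (-1.26 ± 0.19), the netrin receptor Unc5d 32.4, 29.4 and 29.1 CPM on d12 and 72.00, 77.7 and 73.4 CPM on d15 (1.27 ± 0.09) and the adhesion molecule Cntn1 17.3, 19.2 and 24.7 CPM on d12 and 53.9, 47.4 and 44.5 CPM on d15 (1.23 ± 0.13). In the Reelin and migration list 4 rose and 4 fell of 22 (5 higher and 6 lower without d12 replicate 3), and none of the rises was called without each library in turn. Reln itself had 118, 104 and 53.7 CPM on d12 and 112, 104 and 124 CPM on d15 and its adaptor Dab1 125, 118 and 90.7 CPM on d12 and 143, 141 and 156 CPM on d15, neither of them called. Nde1, a dynein partner also needed for progenitor division, changed by -1.09 ± 0.16, the chemokine receptors Ackr3 and Cxcr4 by -0.94 ± 0.13 and -0.54 ± 0.11, and Rnd3, which frees migrating neurons from RhoA, by -0.88 ± 0.10. Of 25 microtubule proteins and kinesins 6 rose and 1 fell (7 higher and 7 lower without d12 replicate 3, 3 and 0 whichever library was left out), and the axonal protein Mapt, tau, had 388, 436 and 463 CPM on d12 and 721, 713 and 596 CPM on d15 (0.64 ± 0.11), Stmn4 143, 169.8 and 153 CPM on d12 and 319, 302 and 275 CPM on d15 (0.92 ± 0.11) and the kinesin Kif1a 227, 215 and 219 CPM on d12 and 373, 343 and 305 CPM on d15 (0.60 ± 0.09). In the amyloid and tau list, to which Mapt also belongs, 5 of 20 rose and 1 fell (6 higher and 5 lower without d12 replicate 3, 2 and 1 whichever library was left out), and App itself had 157, 159.8 and 178 CPM on d12 and 166, 160.1 and 141 CPM on d15 and was not called.

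Genes of glial lineages were mixed. Of 18 genes of the oligodendrocyte lineage 6 rose, 1 fell and 11 were not called (7 higher and 2 lower without d12 replicate 3), with a median of 0.17, and 0.48 without d12 replicate 3. All 6 rises were called without each library in turn. Olig1 had 2.39, 2.58 and 4.08 CPM on d12 and 16.4, 15.2 and 11.5 CPM on d15 (2.23 ± 0.24), Gpr17, a receptor of committed precursors, 1.07, 0.546 and 1.24 CPM on d12 and 4.06, 3.68 and 3.20 CPM on d15 (1.92 ± 0.32), and Lhfpl3 5.10, 5.61 and 4.88 CPM on d12 and 14.2, 18.2 and 16.8 CPM on d15 (1.63 ± 0.17). Olig2, which also marks ventral progenitors, had 17.6, 21.4 and 8.05 CPM on d12 and 12.5, 11.8 and 11.1 CPM on d15 and was called, as lower, only without d12 replicate 3 (-0.79, adjusted p = 0.000227). Pdgfra, the receptor of oligodendrocyte precursors and of mesenchyme, had 17.5, 6.58 and 73.4 CPM on d12 and 18.1, 22.7 and 14.97 CPM on d15, with its highest value in d12 replicate 3, and was not called. Of 23 astrocyte genes 7 rose and 6 fell (12 higher and 6 lower without d12 replicate 3, 4 and 3 whichever library was left out). Ntsr2, a neurotensin receptor, Hepacam, an adhesion protein, and Bcan, brevican of the matrix, changed by 2.57 ± 0.33, 2.27 ± 0.30 and 1.53 ± 0.16. The filament Gfap and the water channel Aqp4 of mature astrocytes were at or below 5.05 CPM in all 6 libraries and were not called with them. Without d12 replicate 3 both were called higher, Gfap by 1.73 and Aqp4 by 1.23. They reached 17.9, 7.35 and 16.4 CPM and 54.7, 37.4 and 38.4 CPM on d17.

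**Figure D4:**
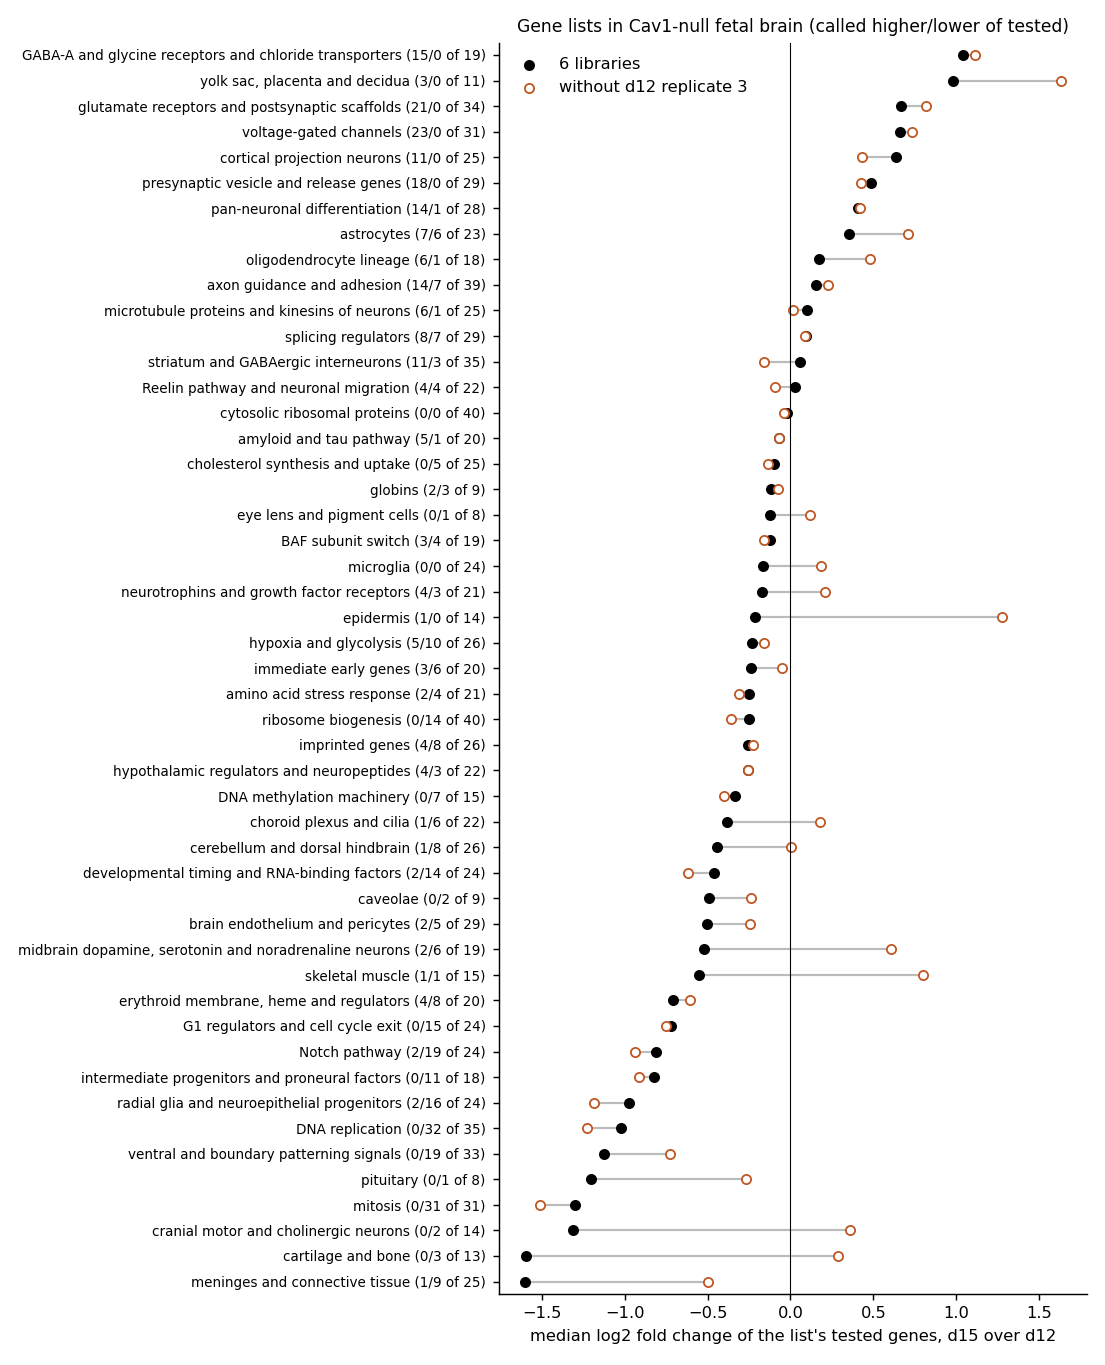
Median log2 fold change of d15 over d12 of each gene list other than the Hox genes, with 6 libraries (black) and without d12 replicate 3 (open orange), and beside each name the members called higher, called lower and tested. The mitosis list (-1.30) and the GABA-A and glycine receptor list (1.04) keep their side of 0, while the lists of motor neurons, cartilage, muscle, monoamine neurons, epidermis, striatum, cerebellum, Reelin, microglia, choroid plexus, lens and neurotrophins change side.

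None of the 24 microglia genes was called with 6 libraries (3 higher and 1 lower without d12 replicate 3), and Cx3cr1, a chemokine receptor of microglia, had 5.57, 4.76 and 11.4 CPM on d12 and 6.07, 4.64 and 5.78 CPM on d15. Of 29 genes of endothelium and pericytes 2 rose and 5 fell (4 higher and 8 lower without d12 replicate 3, 1 and 1 whichever library was left out), where 11.6% of all genes tested were higher and 11.8% lower with 6 libraries. Slc2a1, the glucose transporter of the barrier, had 38.4, 35.1 and 38.9 CPM on d12 and 19.8, 17.98 and 16.6 CPM on d15 (-1.07 ± 0.10), and Cldn5, a tight junction protein, had 18.7, 16.3 and 23.6 CPM on d12 and 24.5, 20.6 and 16.2 CPM on d15 and was not called. In the choroid plexus and cilia list 6 of 22 fell (7 higher and 6 lower without d12 replicate 3, 1 and 4 whichever library was left out), among them Igfbp2 (-1.11 ± 0.12), and Prlr, the prolactin receptor, rose (1.91 ± 0.24). Ttr, the transthyretin of the choroid plexus, had 224, 169 and 692 CPM on d12 and 365, 468 and 394 CPM on d15, and was called only without d12 replicate 3 (1.00). The meninges and connective tissue list had 9 falls and 1 rise among 25 (3 higher and 10 lower without d12 replicate 3, 0 and 3 whichever library was left out), and its median of -1.60 became -0.50 without d12 replicate 3. Foxd1 changed by -2.83 ± 0.38 and kept its call throughout, while Col1a1 had 11.3, 9.83 and 190.2 CPM on d12 and 5.55, 13.4 and 9.91 CPM on d15 and was called only without d12 replicate 2 (-3.35, adjusted p = 0.0418). In the cartilage list 3 of 13 fell (0 higher and 4 lower without d12 replicate 3, 0 and 2 whichever library was left out), with a median of -1.60, and 0.29 without d12 replicate 3. They include Col2a1, with 150.4, 102 and 196 CPM on d12 and 54.2, 47.3 and 47.4 CPM on d15 (-1.60 ± 0.18), and Sox9, with 60.8, 47.3 and 44.2 CPM on d12 and 22.2, 22.4 and 24.9 CPM on d15 (-1.15 ± 0.14), which are also made by neural progenitors. The list of neurotrophins and growth factor receptors had 4 rises and 3 falls among 21 (6 higher and 3 lower without d12 replicate 3, 1 and 2 whichever library was left out), among them the neurotrophin-3 receptor Ntrk3 with 123, 118 and 117 CPM on d12 and 219, 222 and 242 CPM on d15 (0.91 ± 0.08) and Fgfr3, a receptor of progenitors, with 132, 131 and 86.2 CPM on d12 and 49.95, 53.8 and 39.2 CPM on d15 (-1.32 ± 0.20).

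Of the lens and pigment list 8 of 23 genes had enough reads to be tested, and of the pituitary list 8 of 17, with Gh and Prl at 0 reads in all 6 libraries. In the pituitary list 1 gene fell (0 higher and 3 lower without d12 replicate 3, 0 and 1 whichever library was left out), with a median of -1.20, and -0.27 without d12 replicate 3. Of the muscle list 1 rose and 1 fell among 15 (3 higher and 1 lower without d12 replicate 3, 1 and 0 whichever library was left out), of the epidermis list 1 rose among 14 (4 higher and 1 lower without d12 replicate 3, 1 and 0 whichever library was left out), and of the lens and pigment list 1 fell among 8 (1 higher and 2 lower without d12 replicate 3, 0 and 0 whichever library was left out). Krt5, a keratin of the epidermis, was highest in d12 replicate 3, with 0.464, 0.334 and 9.88 CPM on d12 and 0.0745, 5.88 and 2.23 CPM on d15, and was not called with 6 libraries but was called higher without d12 replicate 3 (2.72, adjusted p = 0.0247). Of the yolk sac, placenta and decidua list 3 rose among 11 tested of 23 (6 higher and 0 lower without d12 replicate 3, 1 and 0 whichever library was left out), with a median of 0.98, and 1.63 without d12 replicate 3. The list summed to 236, 182 and 717 CPM on d12 and 389, 487 and 429 CPM on d15, highest in d12 replicate 3. In each library this sum lay close to the CPM of Ttr alone, given above for the choroid plexus. The sum therefore gives no measure of yolk sac or placental RNA. The yolk sac product Afp had 0.143, 0.485 and 0.651 CPM on d12 and 0.224, 0.275 and 5.82 CPM on d15, and was not called.

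Embryonic globins of the blood in the libraries fell. Of 9 globins tested 2 rose and 3 fell. The embryonic globins Hbb-y, Hbb-bh1 and Hba-x made up 67.6%, 69.9% and 73.0% of the reads of 7 globin genes on d12 and 1.42%, 1.59% and 1.34% on d15. The adult globins Hbb-bs, Hbb-bt, Hba-a1 and Hba-a2, pairs of near-identical copies between which reads may be split, summed to 1778, 1441 and 1219 CPM on d12 and to 3009.7, 3725 and 3628 CPM on d15. Of these Hbb-bs and Hbb-bt rose, while Hba-a1 (0.03 ± 0.12, adjusted p = 0.898) and Hba-a2 (0.33 ± 0.13, adjusted p = 0.111) were not called and overlapped between the days. In the list of erythroid membrane, heme and regulatory genes 8 fell, 4 rose and 8 were not called of 20 (2 higher and 7 lower whichever library was left out), and the list summed to 479, 508 and 496 CPM on d12 and 465, 484 and 494 CPM on d15. Epb42, a protein of the red cell membrane, had 2.96, 4.19 and 3.37 CPM on d12 and 0.596, 0.309 and 0.215 CPM on d15 (-3.25 ± 0.40), and the blood group antigen Kel changed by -2.37 ± 0.46. In the same list the erythroid regulator Klf1 had 1.39, 1.34 and 1.63 CPM on d12 and 0.857, 0.275 and 0.79 CPM on d15 and was not called.

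Among genes of the nucleus, 4 of 19 subunits of the BAF chromatin complex fell and 3 rose (3 higher and 8 lower without d12 replicate 3, 1 and 2 whichever library was left out). Over all genes tested, 11.6% were higher and 11.8% lower with all libraries. The progenitor subunit Actl6a had 76.6, 91.6 and 66.1 CPM on d12 and 39.3, 41.1 and 37.3 CPM on d15 (-1.02 ± 0.14). Its neuronal counterpart Actl6b had 89.5, 107 and 99.95 CPM on d12 and 127, 133 and 121 CPM on d15, a change of 0.33 ± 0.10 whose call was lost without d12 replicate 1 or any d15 library, and the ATPase Smarca2 rose by 0.58 ± 0.10. Of 29 splicing regulators 8 rose and 7 fell (3 higher and 1 lower whichever library was left out), and the number of falls lay between 1 without d15 replicate 3 and 10 without d12 replicate 3. Ptbp1, which represses neuronal exons in progenitors, had 112, 93.7 and 106 CPM on d12 and 69.2, 66.5 and 64.96 CPM on d15 (-0.66 ± 0.08), Ptbp2, its paralogue in young neurons, 580.1, 665 and 515 CPM on d12 and 487, 479.9 and 507 CPM on d15, with a call only without d12 replicate 3 (-0.41), and Rbfox1, of maturing neurons, 41.3, 46.8 and 59.6 CPM on d12 and 95.8, 98.5 and 97.8 CPM on d15 (0.97 ± 0.11). Of 15 genes of DNA methylation 7 fell and none rose (0 higher and 3 lower whichever library was left out), among them the methyltransferase Dnmt3a (-0.42 ± 0.08) and the demethylation factor Gadd45g (-0.97 ± 0.17). Of 26 imprinted genes 4 rose and 8 fell (3 higher and 6 lower whichever library was left out). The maternally expressed noncoding RNA Meg3 had 2011, 2021 and 3393 CPM on d12 and 5101, 5389.6 and 4784 CPM on d15 (1.03 ± 0.18). Its paternally expressed neighbour Dlk1 went the other way with 105, 121 and 114 CPM on d12 and 35.5, 40.8 and 27.5 CPM on d15 (-1.74 ± 0.14), and Grb10, an adaptor of growth receptors, had 307, 258 and 434 CPM on d12 and 107, 115 and 108 CPM on d15 (-1.61 ± 0.15).

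Translation and metabolism differed by step. None of the 40 cytosolic ribosomal proteins was called (2 higher and 2 lower without d12 replicate 3), with a median of -0.02 and a range of -0.30 to 0.35. With RLE size factors, library sizes alone or upper quartile scaling the median lay between -0.02 and 0.03. In contrast 14 of 40 genes of ribosome biogenesis fell and none rose (0 higher and 26 lower without d12 replicate 3), 5 of them without each library in turn. The nucleolar proteins Ncl and Npm1 had 741, 787 and 682 CPM on d12 and 455, 468 and 441 CPM on d15 (-0.72 ± 0.10) and 906, 983 and 823 CPM on d12 and 559, 572 and 596 CPM on d15 (-0.68 ± 0.11), and Dkc1, of box H/ACA particles, changed by -0.84 ± 0.13. Of 26 genes of hypoxia and glycolysis 5 rose and 10 fell (5 higher and 8 lower whichever library was left out). Pfkp, the platelet form of phosphofructokinase, had 222, 204 and 398 CPM on d12 and 939, 957 and 918 CPM on d15 (1.76 ± 0.21). The neuronal glucose transporter Slc2a3 had 19.3, 16.5 and 28.4 CPM on d12 and 37.96, 39.3 and 34.5 CPM on d15 (0.79 ± 0.16), opposite to Slc2a1. Of 21 genes of the amino acid response 4 fell and 2 rose (4 higher and 7 lower without d12 replicate 3, 1 and 3 whichever library was left out), with the serine synthesis enzymes Phgdh (-1.16 ± 0.13) and Psat1 (-1.01 ± 0.12) lower and the arginine transporter Slc7a3 (1.33 ± 0.26) higher. Of 25 cholesterol genes 5 fell (2 higher and 10 lower without d12 replicate 3), none of them without each library in turn. Immediate early genes were mixed, with 3 higher and 6 lower of 20 (5 higher and 7 lower without d12 replicate 3, 2 and 2 whichever library was left out), and Nr4a3 (1.60 ± 0.17) and Npas4 (1.11 ± 0.16), both induced by activity, rose. Of the caveolae list 2 of 9 tested genes fell, Ehd4 (-1.20 ± 0.31) and Pacsin2 (-0.48 ± 0.14), both with calls lost without any d15 library and that of Pacsin2 also without d12 replicate 1.

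The change was compared with that of C57BL/6J, which has Cav1, by the interaction of strain and day over 12 libraries. Of 21191 genes 1 differed, or 0.00472%, and 3181 had an unadjusted p under 0.05 in edgeR's quasi-likelihood test. The gene was Slc7a11, the cystine and glutamate exchanger, at 12.95, 10.1 and 15.03 CPM on d12 and 11.5, 11.9 and 13.3 CPM on d15 in Cav1-null and at 12.9, 16.05 and 9.01 CPM on d12 and 119, 111 and 115 CPM on d15 in C57BL/6J. Its change was -0.07 in Cav1-null and 3.22 in C57BL/6J, a difference of -3.31 ± 0.27 (adjusted p = 0.000523). The C57BL/6J libraries of d15 lay far above the rest, while the Cav1-null libraries of both days overlapped. Next by p were Rpl34, a ribosomal protein, and its pseudogene Rpl34-ps1, the predicted gene Gm4815, and Thsd4, a microfibril protein, with adjusted p of 0.0739, 0.12, 0.0867 and 0.139. Reads of Rpl34 may be split with its near-identical copies. Thsd4 had 17.9, 15.02 and 17.3 CPM on d12 and 6.18, 8.15 and 7.79 CPM on d15 in Cav1-null (-1.20 ± 0.16), and 23.1, 28.98 and 19.2 CPM and 32.04, 26.7 and 26.4 CPM in C57BL/6J. Single C57BL/6J libraries stood apart, d12 replicate 3 with Hbb-bh1 at 8.09, 4.17 and 328 CPM and the mitosis genes summing to 3176, 2936 and 4657 CPM on d12. On d15 the genes of meninges and connective tissue summed to 6069.5, 1073 and 1384 CPM in C57BL/6J, highest in replicate 1, as were the cartilage genes with 1231, 333 and 336 CPM, and the Hox genes to 1.79, 0.847 and 234 CPM, highest in replicate 3. The count rested on single libraries, being 8, 1618 and 4 without C57BL/6J d12 replicates 1, 2 and 3, 1 without each C57BL/6J d15 library, and 0 when all 27 libraries were fitted in 1 model, where 1987 genes had an unadjusted p under 0.05. DESeq2 called 428 genes.

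**Figure D5:**
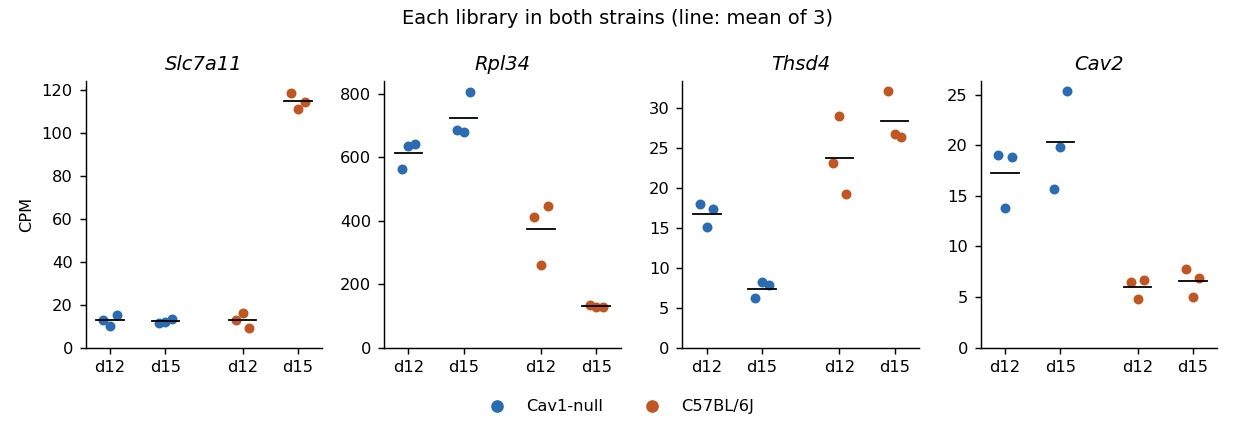
CPM of Slc7a11, Rpl34, Thsd4 and Cav2 in each library of d12 and d15 of Cav1-null (blue) and C57BL/6J (orange), with the mean of 3 libraries as a line. Slc7a11 lies between 9.01 and 16.05 CPM in every group but C57BL/6J d15, where it lies between 111 and 119 CPM.

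The early change was last compared with the late change within Cav1-null, d15 to d17, over 9 libraries. The late change shares the d15 libraries with the early one, so a d15 library that is high or low adds to the difference. Of 21064 genes 116 differed, or 0.551%, with 82 positive and 34 negative differences. Of the positive, 49 had a positive change in both phases and 33 a positive and then a negative change. The early phase spans 3 days and the late phase 2, and changes were not scaled to days. A rise at a steady rate per day would thus also give a positive difference. B230209E15Rik had 43.8, 44.4 and 43.3 CPM on d17, a late change of 0.79 after 3.81 (difference 3.02 ± 0.24, adjusted p = 0.000838). Sla had 50.5, 46.8 and 70.4 CPM on d17, overlapping d15, with a late change of -0.08 (difference 3.92 ± 0.36). Grm5 went on to 191, 208 and 199.9 CPM, a late change of 1.18 (difference 1.29 ± 0.13). On the negative side, Igfbp5, a binding protein of insulin-like growth factors, had 100.1, 91.1 and 128 CPM on d12 and 60.7, 52.9 and 53.7 CPM on d15 and 93.9, 99.9 and 88.7 CPM on d17 (difference -1.71 ± 0.18), and Tnfrsf19, a receptor of progenitors, had 68.9, 64.6 and 71.8 CPM on d12 and 28.2, 31.04 and 25.7 CPM on d15 and 36.3, 33.1 and 33.99 CPM on d17 (difference -1.58 ± 0.17). Both were lowest on d15. The count was 1041 without d12 replicate 3 and fell to 29, 4 and 3 without d15 replicates 1, 2 and 3 and to 29, 35 and 12 without d17 replicates 1, 2 and 3.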

How the data were processed

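Per the labels and the study's methods, messenger RNA was selected with poly-T beads, primed with random hexamers and sequenced as paired reads. The authors checked reads with FastQC, trimmed them with cutadapt and fastp and mapped them to GRCm39 with STAR (versions not given in the sources used here). The deposited gene table holds raw read counts per Ensembl gene, whole numbers without normalization, and how strands and reads with several matches were counted is not given in the sources used here. The junction table was not used here. No row without a gene name was present in the library sizes, and all 27 columns matched the samples' labels.

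The 6 libraries had 26846313 to 33795422 reads on genes, and their pairs differed beyond sampling noise (chi-square per gene of 5.33 to 57.6). Genes were kept by filterByExpr, scaled by TMM (factors 0.950 to 1.04) and tested with the quasi-likelihood test of edgeR 4.0.16 in R 4.3.3, with Benjamini-Hochberg adjustment over all genes tested. The biological coefficient of variation was 21.3%. Standard errors were taken as |log2 fold change| divided by the root of F. The comparison with C57BL/6J used 12 libraries and that with the late phase 9. Scripts were tested on simulated data. Alternatives were RLE and upper quartile scaling, library sizes alone, no filter, at least 10 reads in every library, DESeq2 1.42.0, the likelihood ratio test, 1 model of 27 libraries, a fold threshold, a block for the replicate number and the removal of each library. Intervals of motif shares are 95% Wilson intervals and cover counting error only.

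The gene lists and tests were chosen with earlier results of these data known. Named genes were the 12 largest rises and the 12 largest falls among called genes whose average log2 CPM reached 3 and whose days did not overlap, the first 3 members of a list and its 4 called members with the largest change, the 5 smallest p of the other comparisons, and checks of the labels. Some genes that fall under the rule are not reported here. Ube2c, Hbb-bt, Hba-a1, Hba-a2 and the sex-linked genes were named after their values were seen. Positions are from GENCODE vM39 (GRCm39), which matched 19815 of the genes tested.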

Additional observations from a re-analysis of the deposited data

Results flagged for a closer look

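The early change of Slc7a11 differed between the strains by the interaction test, by -3.31 ± 0.27 on the log2 scale (edgeR's quasi-likelihood test, adjusted p = 0.000523, the only gene of 21191 called). The 3 C57BL/6J libraries of d15 lay between 111 and 119 CPM and the other libraries of the comparison between 9.01 and 16.05 CPM. The difference was called without each of the 12 libraries in turn and was missed only in the model of all 27 libraries, where its adjusted p was 0.108.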

How the results depend on the processing

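The count of 4666 called genes stayed within 1.5 times under RLE, upper quartile scaling, library sizes alone, both filters on low counts, DESeq2 and the likelihood ratio test (4607 to 5281). It was 3056 with all 27 libraries in 1 model, 1589 when a log2 change of 1 or more was also asked for, and 2301 to 7378 when 1 library was left out. The share of higher calls was 49.7%, and 56.96% with upper quartile scaling. The count of genes whose change differed from that of C57BL/6J, 1, became 46 without a filter, 2 with at least 10 reads in every library, 428 with DESeq2, 200 with the likelihood ratio test, 0 with 27 libraries in 1 model, and 1 to 1618 when a library was left out. The 116 genes whose early and late change differed became 730 without a filter, 672 with DESeq2, 566 with the likelihood ratio test, 3 with 27 libraries in 1 model, and 3 to 1041 when a library was left out. The causes were not tested. Of the 159 named genes called, 137 to 159 kept their call when 1 library was left out, 142 in the model of 27 libraries and 154 with the replicate block, and none changed direction. Krt5, not called, went from -0.35 ± 1.30 to 2.72 without d12 replicate 3 and to -1.58 without d15 replicate 2. Medians moved beyond the spread of replicates for 2 to 18 of the 50 lists when a library was left out, the 18 without d12 replicate 3. In the 150 bases nearest the start the E2F motif was present in 0% of the mitosis promoters, against 3.7% in the full window, and over all genes the E2F motif was present in 2.37% against 4.28% and the CHR letters in 6.11% against 14.8%.

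Same-numbered d12 and d15 libraries correlated in their deviations from the mean of their day by 0.056, -0.194 and -0.116. With so few libraries per day, these values cannot decide whether the samples were paired. With a replicate block, 3398 genes were called in the early phase, 1 in the comparison of strains and 19 in that of phases.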
